A study of Mus musculus with 2 samples.

Results

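Tall compact H3K4me3 islands were the places in mouse incisor pulp cells where H3K4me3 reached a high summit in an island below a width limit. An island is a run of enriched windows called as a single interval, and its height is the value that the authors gave to its summit. Members were selected on these measured values: an H3K4me3 island on chromosomes 1 to 19, less than 8 kb wide, with a summit height of at least 180. The rule took 1093 of the 13892 autosomal H3K4me3 islands. Compact refers to the width limit only: the median width was 4.8 kb in members and 3.6 kb over all autosomal H3K4me3 islands. The remaining 12799 islands were 154 tall wide ones (height of at least 180, width of 8 kb or more), 12071 lower compact ones and 574 lower wide ones.

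The cells came from the pulp of CD1 pups at postnatal day 5, given EdU intraperitoneally at 3.3 µg per g body weight 24 h earlier, and EdU-positive cells were sorted before chromatin immunoprecipitation. EdU is a thymidine analogue taken up during DNA synthesis, so the sort keeps cells of any type that replicated DNA or descend from such cells, and the labels do not say how many pups a library represents. Each mark, H3K4me3 and H3K27me3, had 1 library from such sorted cells, without input. No difference below therefore has a replicate check or a p-value, the read depth is unknown, and intervals are exact (Clopper-Pearson) 95% intervals that cover counting over islands, genes or promoters only.

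H3K4me3 is placed around the start sites of genes by the SET1 and MLL methyltransferase complexes, which are recruited in part through proteins that bind unmethylated CpG dinucleotides. The strength and the breadth of the mark are separate features: broad domains are known from cell identity genes, whereas sharp, strong peaks are common at genes used in most cells. H3K27me3 is written by Polycomb repressive complex 2 and marks silent or poised developmental genes. Promoters that carry both marks are called bivalent.

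Promoter sequences of 6 genes show what lay under these islands, from 250 bases before to 30 after the RefSeq gene start (GRCm38.p6, the assembly called mm10). They are the genes of the islands with the greatest heights, of the tallest members that hold the letters of the YY1 motif, and the plus-strand genes of tall members between divergent genes. Capitals mark matches on either strand to the letters GCGCANGCG of NRF1, AANATGGCG of YY1 and GGGCGGG of the GC box bound by SP and KLF factors. Atxn2l (minus strand, chr7:126503408-126503687), an ataxin-related RNA-binding protein gene, lay under the member with the greatest height, and its promoter held 2 NRF1 matches and 1 GC box:
Atxn2l: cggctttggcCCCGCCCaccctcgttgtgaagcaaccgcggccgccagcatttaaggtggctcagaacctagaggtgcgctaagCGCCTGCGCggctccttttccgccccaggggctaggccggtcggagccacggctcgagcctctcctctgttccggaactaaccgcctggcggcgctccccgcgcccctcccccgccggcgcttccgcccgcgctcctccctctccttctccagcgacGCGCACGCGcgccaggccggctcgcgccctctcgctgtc
Hnrnpu (minus strand, chr1:178337786-178338065) encodes a nuclear RNA- and scaffold-binding protein and held 3 GC boxes, a pair of which overlap:
Hnrnpu: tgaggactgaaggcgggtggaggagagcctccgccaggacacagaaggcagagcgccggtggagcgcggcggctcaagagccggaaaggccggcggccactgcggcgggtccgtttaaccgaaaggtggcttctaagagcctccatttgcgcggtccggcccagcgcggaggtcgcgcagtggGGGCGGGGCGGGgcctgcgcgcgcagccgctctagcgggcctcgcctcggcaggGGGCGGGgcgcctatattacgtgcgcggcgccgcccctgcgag
Pcif1 (plus strand, chr2:164879118-164879397), the gene of the methyltransferase that modifies the first adenosine after the mRNA cap, held 1 match each to YY1, NRF1 and the GC box:
Pcif1: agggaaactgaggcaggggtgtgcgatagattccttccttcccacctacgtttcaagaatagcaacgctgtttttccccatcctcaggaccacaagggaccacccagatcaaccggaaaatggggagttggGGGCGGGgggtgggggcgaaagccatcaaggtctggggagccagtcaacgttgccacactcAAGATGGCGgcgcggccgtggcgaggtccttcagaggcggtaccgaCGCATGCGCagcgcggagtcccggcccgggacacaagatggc
Ube2g1 (plus strand, chr11:72607011-72607290), a ubiquitin-conjugating enzyme gene, held 1 YY1 match, 1 NRF1 match and 2 GC boxes:
Ube2g1: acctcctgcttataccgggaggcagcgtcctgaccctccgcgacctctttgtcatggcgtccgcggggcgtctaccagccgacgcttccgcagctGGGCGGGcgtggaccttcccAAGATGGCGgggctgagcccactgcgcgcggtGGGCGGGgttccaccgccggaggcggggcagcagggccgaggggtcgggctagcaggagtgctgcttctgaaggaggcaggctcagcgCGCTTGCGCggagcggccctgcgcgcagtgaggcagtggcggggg
P3h1 (plus strand, chr4:119232665-119232944), a collagen prolyl hydroxylase gene, starts 191 bp from the oppositely directed AU022252 and held 1 NRF1 match and 2 GC boxes:
P3h1: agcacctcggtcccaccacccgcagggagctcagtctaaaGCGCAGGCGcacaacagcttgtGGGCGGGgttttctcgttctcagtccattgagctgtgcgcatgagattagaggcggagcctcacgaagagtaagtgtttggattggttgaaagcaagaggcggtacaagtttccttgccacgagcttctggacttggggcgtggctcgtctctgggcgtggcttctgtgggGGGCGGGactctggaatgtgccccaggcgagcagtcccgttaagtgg
Rmi1 (plus strand, chr13:58401998-58402277), a genome stability gene, starts 131 bp from Hnrnpk and held 1 GC box:
Rmi1: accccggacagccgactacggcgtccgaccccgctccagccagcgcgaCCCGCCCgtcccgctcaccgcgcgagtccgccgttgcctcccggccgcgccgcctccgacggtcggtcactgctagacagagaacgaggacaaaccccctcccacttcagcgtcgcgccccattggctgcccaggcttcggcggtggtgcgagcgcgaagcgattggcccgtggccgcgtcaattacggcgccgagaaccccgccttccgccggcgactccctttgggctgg

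The members ranged in height from 180 to 278, with a median of 194 and quartiles of 186 and 206. In width they ranged from 1.4 to 7.8 kb, with a median of 4.8 kb and quartiles of 3.8 and 5.8 kb. Over all autosomal H3K4me3 islands the median height was 93 (quartiles 37 and 142) and the median width 3.6 kb (2.4 and 5 kb). Of the members, 681 stood below a height of 200, 298 from 200 to under 220, and 114 at 220 or more. The height limit did not fall in a gap: 43 compact islands stood at 180, those of Nudt19, Snrpa1, Stim1, Fam53b and Apbb2 among them, and 36 stood 1 unit lower, those of Napa, Ticrr, Crebzf and Glrx3 among them. Likewise, 16 tall islands were 7.8 kb wide, just inside the width limit, and 7 were 8 kb wide. Members made up 5.36% of the islands of chromosome 13 (32 of 597), the lowest share, and 10.6% of those of chromosome 12 (54 of 511), the highest.

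**Figure D1:**
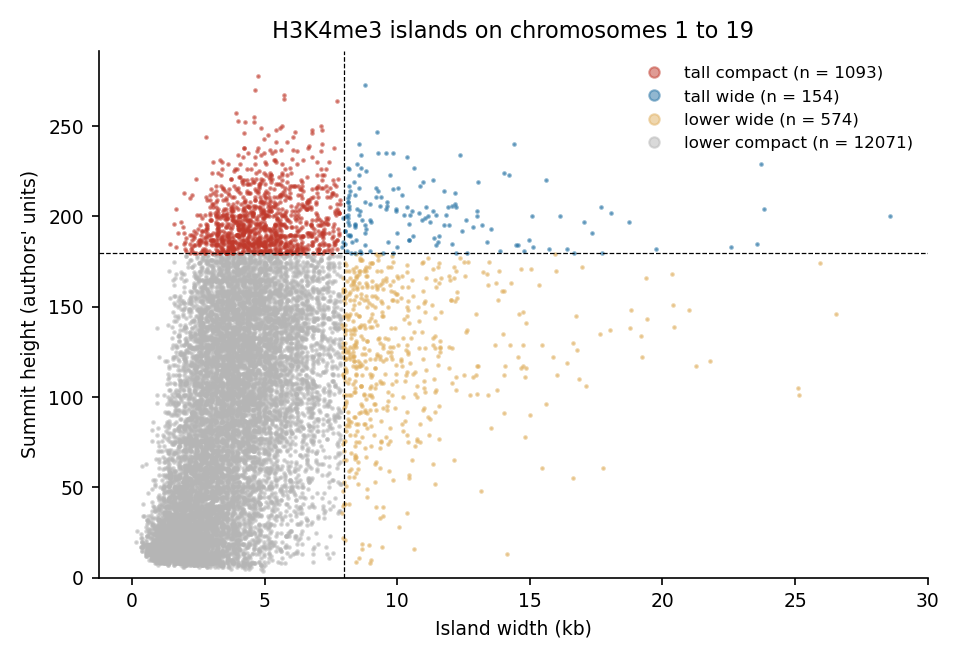
Summit height in the authors' units (y axis) against island width in kb (x axis) for the 13892 H3K4me3 islands of chromosomes 1 to 19, each a point with a small random shift in width; dashed lines mark a height of 180 and a width of 8 kb. The 1093 tall compact islands fill the upper left field, the 154 tall wide ones the upper right field, and points are dense on both sides of the height limit.

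Atxn2l (278) was followed in the height order by Hnrnpu (270) and Eif4a1 (267), which encodes the RNA helicase of cap-dependent translation initiation. Yy1, the gene of the zinc finger factor YY1, had a height of 265. Hnrnpdl shared its island with Enoph1 at 264. The spliceosome gene Cwc22 followed at 257, the zinc finger gene Zbtb11 at 255, and Ypel5 and the lamin gene Lmnb1 at 252 each. These islands were 4 to 7.8 kb wide. Others of the 20 tallest were at Ing1 (250), a reader of H3K4me3 in histone deacetylase complexes, at the splicing factor gene Sf1 (249), at the translation regulator gene Larp1 (249), at the chaperone gene Hspa4 (248), at Ssbp3 (248), at Msl1 (248), at Pcif1 (247), at Rrbp1 (246), at P3h1 with AU022252 (246), and at a site on chromosome 3 without a protein-coding gene (250). Of the 20, only the island of Cwc22 (chr2:77943601-77947599) overlapped H3K27me3, which covered 90.0% of it at a height of 13.

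The narrowest members named here were 1.4 to 1.8 kb wide. Every member had a height of at least 180 by the selection rule. The heights of narrow and wide members therefore do not show how height and width relate. The island of the ubiquitin ligase gene Hace1 was 1.4 kb wide (height 185), those of the prefoldin-like gene Uri1 (204), the kinase gene Stk17b (183) and the mitophagy kinase gene Pink1 (196) were 1.6 kb wide, and that of Klhl24 (191) was 1.8 kb wide. At the other end, islands of 7.8 kb lay at Chka (202), Capn15 (202), Socs1 with Tnp2 (190), 0610012G03Rik with Ncbp2 (191) and Bop1 with Hsf1 (182). Distances to the nearest other H3K4me3 island had a median of 34.2 kb for members (interval 31.2 to 37 kb), and of 29 kb for the other islands (interval 28.4 to 30 kb).

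Nearly every member lay at a gene start. A protein-coding gene start was found inside or within 1 kb of 1069 of the 1093 members (97.8%, interval 96.8 to 98.6%), against 79.6% of the other islands (78.9 to 80.3%). Over all autosomal H3K4me3 islands the share was 81%. Tall wide islands stood at 98.7% (95.4 to 99.8%) and lower compact ones at 78.8% (78.1 to 79.5%), and among compact islands the share was 57.7% at heights under 60 and 96.0% from 150 to under 180. For 913 members the start came from the RefSeq promoter table, which gives strand, and for 156 it could only be placed at either end of the gene.

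The 24 members without such a start fell into 2 kinds. Inside the body of a protein-coding gene lay 21, with Dynll2 and Ywhaz (235 each), Tcf20 (218), Fam13b (216), Prdm2 (202), Tacc1 (195) and Hexim2 (191) among the tallest; starts of other transcripts of these genes were not used here. The other 3 lay outside protein-coding genes, and each held a microRNA gene. The tallest of them (chr3:122291801-122297399, height 250) held Mir760, a tRNA gene and Gm40190. A member of height 203 (chr10:122982001-122988199) held Mirlet7i, a let-7 gene. A member of height 183 (chr14:115040001-115045799) held Mir17hg with the Mir17, Mir18, Mir19a, Mir20a, Mir19b-1 and Mir92-1 genes, a cluster known for promoting proliferation, and H3K27me3 covered 10.3% of it.

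In all, 1210 of the 20661 autosomal protein-coding genes lay at a member, which is 5.86% of these genes and 9.75% of the 12412 with any H3K4me3 island. The genes at members had a median length of 31.5 kb (interval 29.2 to 34.3 kb), and genes at other islands only one of 24.1 kb (interval 23.5 to 24.8 kb). Genes that host a small nucleolar RNA made up 3.31% of the genes at members (2.37 to 4.47%) and 2.20% of those at other islands only (1.93 to 2.48%), and tall members of this kind were at Eif4a1 (267), Ube2g1 (244), Tmem245 and Slc25a3 (230 each). Hosts of microRNAs made up 5.21% (4.02 to 6.61%) and 4.33% (3.96 to 4.72%). The intervals of members and other islands overlap for both kinds of host.

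Among 21 lists of genes by function, the hnRNP and SR splicing factors and the factors of RNA processing, decay and export had the highest shares at members. The share of all autosomal protein-coding genes at a member, 5.86%, and the median height of 115 over genes with an island (quartiles 67 and 153) are the values to read each list against. Among genes with an island the share was 9.75%. The intervals of the proteasome, Polycomb, immediate early, cell cycle and RNA polymerase II lists hold 5.86%. So do those of the respiratory chain, mitochondrial ribosomal protein and pulp stem cell lists. The same holds for the lists of dental and cranial factors, odontoblast genes, regulators of other lineages and markers of other cells. Of the hnRNP and SR proteins, which bind pre-mRNA and steer splicing, 21 of 35 genes (60%, interval 42.1 to 76.1%) lay at a member, and the list's median height was 195. Hnrnpu (270), Hnrnpdl (264), Hnrnpk (245), Srsf2 (241), Hnrnpab (238) and Hnrnpf (236) led it, and none of its genes lay at a tall wide island. Factors of RNA processing, decay and export followed with 12 of 28 genes (42.9%, 24.5 to 62.8%). Among these were the helicase genes Ddx6 (223), of mRNA decay, and Dhx9 (212), the deadenylase scaffold gene Cnot1 (210), the nuclear export genes Xpo1 and Alyref (203 each), and Dicer1 (183) and Ago2 (182), whose proteins process and bind microRNAs. The core spliceosome had 6 of 35 genes (17.1%, 6.56 to 33.6%), Cwc22 (257), Rbm39 (237), Snrpb (215), U2af2 (200), Prpf8 (193) and Sf3b1 (190), and a median height of 141. Of its genes with an island, 18.75% (7.21 to 36.4%) lay at a member, an interval that holds the 9.75% of all genes with an island.

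Genes of protein synthesis were split between the cytoplasm and mitochondria. Cytoplasmic ribosomal proteins lay at members in 17 of 63 genes (27%, 16.6 to 39.7%), with a median height of 173, and in a further 6 at tall wide islands. Rps6 (226), Rps19 (222), Rpl11 and Rps14 (219 each) and Rpl5 (214) were among the tallest. Of the factors of translation initiation and elongation, 9 of 34 genes (26.5%, 12.9 to 44.4%) did so, among them Eif4a1 (267), Eif3a (223), the elongation factor gene Eef1a1 (211), Eif4h (209) and Eif4g2 (202). Mitochondrial ribosomal proteins had 1 of 37 genes (2.70%, 0.0684 to 14.2%) at a member, Mrpl12 (190), with a median height of 105.5. Of the mitochondrial respiratory chain, 3 of 40 genes (7.5%, 1.57 to 20.4%) lay at a member, Uqcrh (189), Cox5a (185) and Atp5a1 (180).

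Ubiquitin and its conjugating enzymes had 9 of 26 genes at members (34.6%, 17.2 to 55.7%), among them Ube2g1 (244), Ube2o (219), Ube2k (200) and Ube2g2 (194). The proteasome had 5 of 31 (16.1%, 5.45 to 33.7%), led by Psma7 (216) and Psmd11 (210). Chaperones had 8 of 29 (27.6%, 12.7 to 47.2%), with Hspa4 (248), Hsp90aa1 (218), Calr, Dnajb1 and Pdia3 (196 each) and a shared island of Hspd1 and Hspe1 (186). Histone variants and nucleosome chaperones had 8 of 24 (33.3%, 15.6 to 55.3%), with the nucleolar chaperone gene Npm1 (213), Anp32b (211), Nasp (204) and the genes of the replacement histone H3.3, H3f3a (199) and H3f3b (198). Remodelers and histone modifiers had 9 of 38 (23.7%, 11.4 to 40.2%), including the deacetylase gene Hdac1 (226), the acetyltransferase genes Kat7 (218) and Ep300 (203), and Kdm2a (215), which encodes a demethylase that binds CpG-rich DNA. Polycomb complexes had 4 of 31 (12.9%, 3.63 to 29.8%), Aebp2 (224), Cbx2 (219), Phc3 (215) and Scmh1 (183).

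Immediate early and growth response genes had 5 of 30 at members (16.7%, 5.64 to 34.7%): the survival gene Mcl1 (238), Jund (236), Ier5 (226), Nfkbia (198) and Mycn (184). Cell cycle and replication genes had 4 of 35 (11.4%, 3.20 to 26.7%): Mki67 (214), E2f3 (198), Ccnd3 (184) and E2f1 (183). RNA polymerase II, Mediator and elongation had 3 of 38 (7.89%, 1.66 to 21.4%), Cdk9 (208) and Med26 (186) among them. Pulp stem cell and pericyte markers had 2 of 22 (9.09%, 1.12 to 29.2%), the integrin genes Itgav (205) and Itgb1 (183).

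Dental and cranial mesenchyme factors had none of 32 genes at a member, an exact upper limit of 10.9%, although 30 of them had an island, their median height was 131 and 6 lay at tall wide islands. Odontoblast genes (0 of 18), regulators of other lineages (0 of 35) and markers of blood, endothelium, epithelium and nerve (0 of 26) had none either, with median heights of 88, 15.5 and 36.5 where an island was present. The tissue label was set against 7 markers of pulp mesenchyme. All 7 had an island, at heights of 200 for Dlx5, 163 for Pdgfra, 159 for Msx1, 156 for Twist1, 126 for Prrx1, 73 for Col1a1 and 33 for Runx2, and none was a member. Of markers of other cells, 1 of 4 for blood (Cd68, 59), 1 of 5 for endothelium (Kdr, 65), 3 of 4 for epithelium (Epcam 58, Cdh1 46, Krt14 8) and 2 of 3 for nerve and glia (Tubb3, 27, among them) had an island. How far such cells contributed to the members' heights was not tested.

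**Figure D2:**
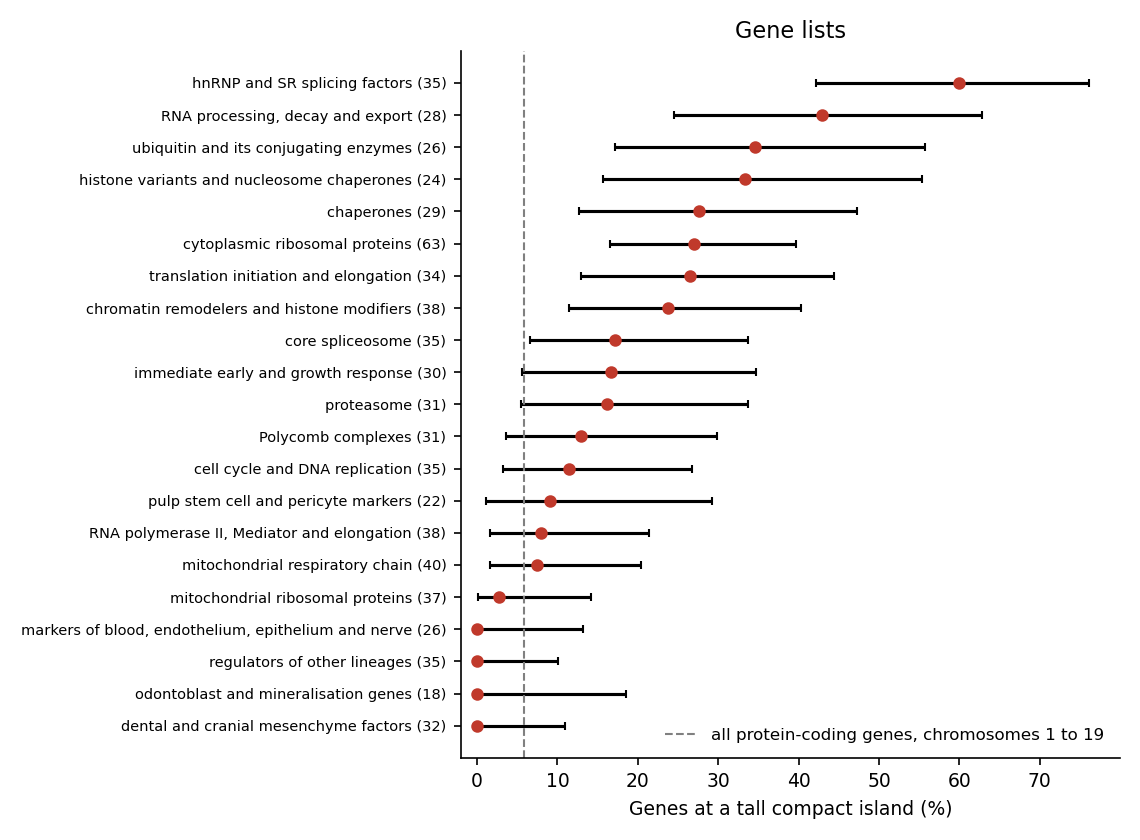
Share of the genes of each list that lay at a tall compact island (x axis, percent), with the number of autosomal genes of the list in parentheses; points are shares, bars exact 95% intervals, and the dashed line is the 5.86% of all autosomal protein-coding genes. The hnRNP and SR list stands at 60%, and 4 lists of tissue and lineage genes stand at 0, with bars that reach past the dashed line.

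Divergent gene pairs were close to the level of the other islands. Such pairs have 2 protein-coding genes on opposite strands pointing away from each other with starts at most 1 kb apart. They were found at 72 of the 913 members with a strand-resolved start (7.89%, interval 6.22 to 9.83%) and at 570 of 8223 other islands (6.93%, 6.39 to 7.5%). The share over all such islands was 7.03%. From under 3 kb to 6 to 8 kb wide, 1.18, 5.37, 5.62, 12.2 and 12.4% of members held a pair, against 2.38, 5.22, 9.32, 11.5 and 14.0% of islands of the same widths with heights under 180, so members were higher in 2 of the 5 ranges and lower in 3. Tall wide islands stood at 13.5% (8.06 to 20.7%). Members with at least 2 gene starts made up 11.3% (9.30 to 13.5%), against 10.9% of the other islands (10.2 to 11.6%). With genes of every type counted, 147 members (16.1%, 13.8 to 18.6%) and 13.8% of the other islands (13.0 to 14.5%) held a pair, and in 75 of the 147 the partner was a long noncoding RNA.

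The starts of the 72 protein-coding pairs were 1 to 960 bp apart, with a median of 146 bp. Hnrnpdl and Enoph1 (264), 772 bp apart, had the tallest island (chr5:100035601-100043399, 7.8 kb). P3h1 and AU022252 (246) and Rmi1 and Hnrnpk (245), whose promoter sequences are given above, came next, in islands of 6.8 and 5.2 kb. Srsf2 and Mfsd11 (241) started 668 bp apart, Ccdc148 and Pkp4 (234) 167 bp, Pigp and Ttc3 (217) 29 bp, Emc6 and Tax1bp3 (217) 41 bp, Zbtb25 and Zbtb1 (217) 960 bp, and the proteasome gene Psma7 and Ss18l1 (216) 19 bp. Of the 72, 4 overlapped H3K27me3.

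The summits of members lay farther into the gene than those of the other islands. Among 786 members with a single strand-resolved start inside the island, the summit was a median of 255 bp downstream of the start (interval 246 to 272 bp), with quartiles of 188 and 384 bp and a range from -1096 to 2293 bp, negative values lying upstream. In 6977 other islands the interval of the median was 176 to 182 bp. The median was 357 bp (242 to 445 bp) in tall wide islands and 177 bp (174 to 180 bp) in lower compact ones. Among compact islands it went up with height, through 146 bp at heights under 60, 166, 189.5 and 225 bp, to 244, 271 and 335.5 bp in members below 200, from 200 to under 220, and of 220 or more. Within each of 5 width ranges up to 8 kb, members had medians of 244 to 283 bp, against 159 to 215 bp for islands of the same widths under 180. Summits lay downstream of the start in 738 members (93.9%, 92.0 to 95.5%), against 88.6% of the other islands (87.8 to 89.3%).

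**Figure D3:**
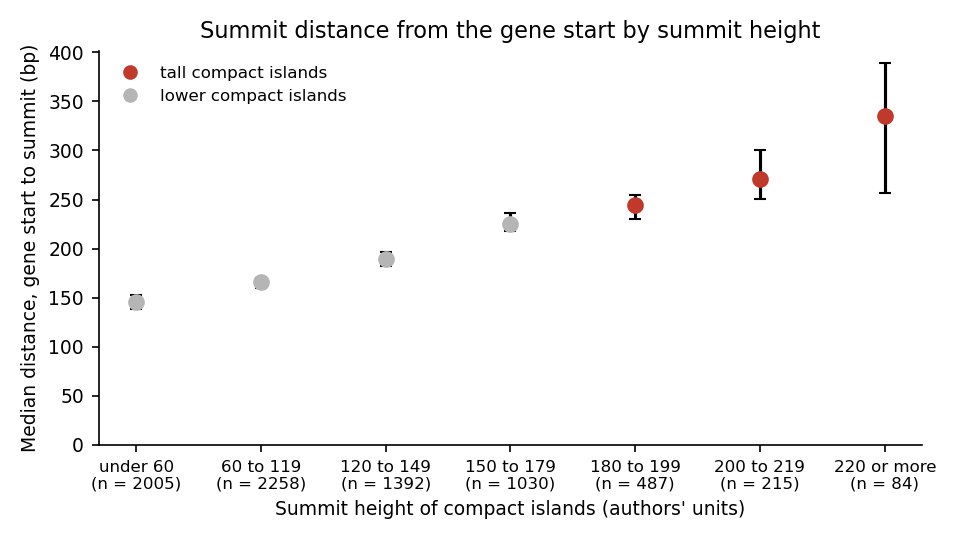
Median distance in bp from the gene start to the summit, positive downstream (y axis), for compact islands in 7 ranges of summit height in the authors' units (x axis); red points are tall compact islands, grey points lower compact ones, bars 95% order-statistic intervals. Medians run from 146 bp at heights under 60 to 335.5 bp at heights of 220 or more.

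At Hnrnpu the summit was 663 bp downstream of the start, at Yy1 559 bp, at Eif4a1 503 bp, at Atxn2l 461 bp and at Pcif1 184 bp. Ing1 was an exception, with its summit at -970 bp, upstream of the listed start. Members also extended farther into the gene than away from it: their median reach was 3106 bp downstream of the start (2990 to 3223 bp) and 1414 bp upstream (1352 to 1497 bp), against 2377 and 1155 bp in the other islands, and 89.4% of members (87.1 to 91.5%), against 83.8% of the other islands (82.9 to 84.6%), reached farther downstream. Members were also the wider islands, and at matched widths the reaches were closer: at 4 to 5 kb they were 3118 bp downstream (3014 to 3238 bp) and 1472 bp upstream (1360 to 1601 bp) in members, against 3020 bp (2969 to 3073 bp) and 1528 bp (1475 to 1560 bp) in islands under 180. At 6 to 8 kb they were 4562 and 2331 bp in members, against 4413.5 and 2314.5 bp. Only under 3 kb did the intervals of the downstream reach lie apart, at 1823 bp (1684 to 1942 bp) in members, against 1471 bp (1435 to 1497 bp). At that width, islands of 150 to under 180 reached 1792.5 bp (1720 to 1862 bp). Those of 120 to under 150 reached 1830 bp (1760 to 1877 bp), and both intervals overlap that of members. Counted from the left edge of the island without regard to strand, the summit sat at 49.6% of the width in members (48.3 to 51.1%) and at 49.3% in the other islands (48.9 to 49.8%). Along the gene's strand it sat at 38.5% (37.3 to 39.6%) and 39.2% (38.7 to 39.7%). The middle 50% of the width held the summit in 85.9% of members (83.7 to 87.9%) and 79.9% of the other islands (79.2 to 80.5%).

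H3K27me3 was found at few members. It overlapped 75 of the 1093 by at least 1 bp (6.86%, interval 5.44 to 8.53%), against 3963 of the 12799 other islands (31.0%, 30.2 to 31.8%) and 29.1% of all autosomal H3K4me3 islands. The share was 15.6% (10.2 to 22.3%) in tall wide islands and 31.1% (30.3 to 31.9%) in lower compact ones. It went down across the height ranges of compact islands, from 47.6% at heights under 60 through 27.1, 14.1 and 10.8%, to 7.64, 6.71 and 2.63% in members below 200, from 200 to under 220, and of 220 or more. The change was thus gradual, with no step at the height limit. At every width the members stood lower: 4.81, 5.76, 7.14, 4.42 and 11.1% from under 3 kb to 6 to 8 kb, against 40.4, 25.5, 22.2, 21.4 and 24.6% of islands under 180 of the same widths. Islands of 150 to under 180 were closer, at 7.20, 10.1, 10.5, 10.2 and 17.2%, and at each width their interval overlaps that of members. Over all compact widths, islands of 150 to under 180 had an interval of 9.32 to 12.5%, which lies above that of members.

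**Figure D4:**
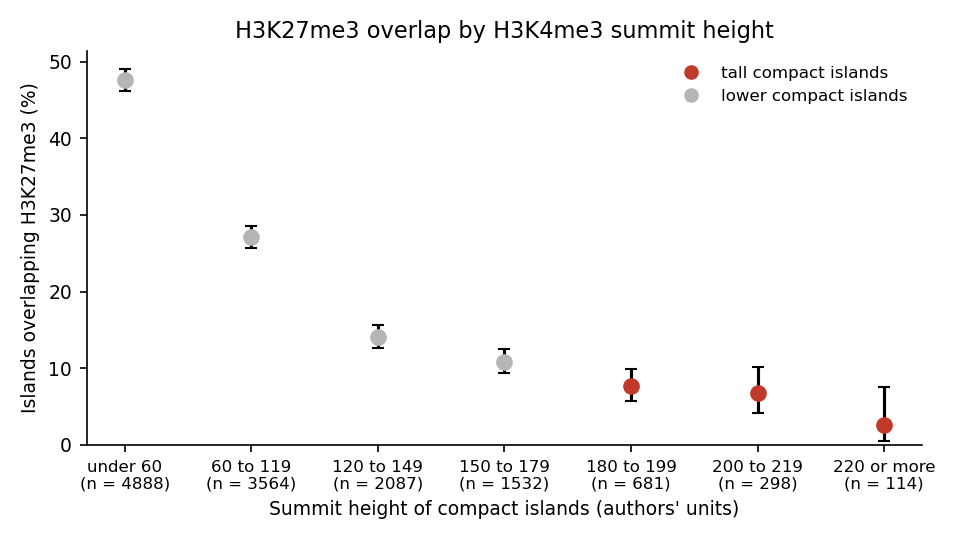
Share of compact H3K4me3 islands that overlapped an H3K27me3 island by at least 1 bp (y axis, percent) in 7 ranges of summit height in the authors' units (x axis); red points are tall compact islands, grey points lower compact ones, bars exact 95% intervals. The share is 47.6% at heights under 60 and 2.63% at heights of 220 or more.

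Where the marks met at members, the overlap was partial and the H3K27me3 low. H3K27me3 covered a median of 36.7% of the island in the 75 members (quartiles 22.0 and 60.6%), against 100% in the overlapped other islands. It lay at the H3K4me3 summit in 29 members, which is 2.65% of all members (1.78 to 3.79%) and 38.7% of the overlapped ones (27.6 to 50.6%), against 27.5% (26.7 to 28.2%) and 88.7% (87.7 to 89.7%) of the other islands. Over all autosomal H3K4me3 islands the share with H3K27me3 at the summit was 25.5%. The H3K27me3 islands at members had a median height of 12 (quartiles 10 and 16.5), against 25 (14 and 49) at the other islands, and 41 of the 75 were lower than 13, the median of all autosomal H3K27me3 islands. In the 24 overlapped tall wide islands, H3K27me3 covered a median of 42.4% (23.8 to 88.4%), at a median height of 19 (12 to 33). It lay at the H3K4me3 summit in 50% of these 24 (29.1 to 70.9%). Each of these intervals overlaps that of members. Over all tall wide islands, H3K27me3 lay at the summit in 7.79% (4.09 to 13.2%), above the share of members. Islands of H3K27me3 that are low can be missed or called by small differences in depth, which is unknown here.

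The 10 members with the longest overlap were covered as follows. Spry1 (chr3:37638401-37645599, height 189), an inhibitor of receptor tyrosine kinase signalling, was covered to 72.2% at an H3K27me3 height of 9. Fgfr3 (chr5:33720401-33726599, 201), an FGF receptor gene, was covered to 71.0% at 12, and Efnb2 (192), an ephrin ligand gene, to 84.0% at 12. Ust (182), a sulfotransferase gene, was covered to 88.6% at 11. Apbb2 (180), Sertad4 (186), Rab34 (181), Mkrn1 (184) and the phosphatase gene Ptpn13 (201) were covered fully, at H3K27me3 heights of 8, 7, 10, 24 and 14, and the divergent pair Ccdc92 and Zfp664 (189) to 93.3%. The highest H3K27me3 summits at members were at Psd with Fbxl15 (85), Osbpl2 (69), the carboxylmethyltransferase gene Icmt (61), the divergent pair Nae1 and Car7 (60), and the Ccdc92 pair (59). At Osbpl2, Icmt and the Nae1 pair the H3K27me3 island covered 29.98, 36.4 and 37.5% of the member and did not reach its summit.

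The promoters at members were rich in CpG. The ratio of observed to expected CpG over 300 bases had a median of 0.890 (interval 0.879 to 0.908) in 913 promoters at members, against 0.775 (0.769 to 0.781) in 8137 at other islands and 0.384 over all 32851 promoters of the table. Their GC content had medians of 67% (66.3 to 67.7%) and 62.7% (62.3 to 62.7%), and 52.7% over the table. Tall wide islands had a CpG ratio of 0.900 (0.850 to 0.940). In members the ratio differed little with height, at 0.890, 0.891 and 0.900 in the 3 ranges from 180 up, and below them it was 0.614 at heights under 60 and 0.870 from 150 to under 180. Since CpG content moved with height, the H3K27me3 shares were also set side by side within ranges of the ratio. Between 0.75 and 1, H3K27me3 overlapped 7.87% of members and 26.2% of other islands.

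Of 11 motifs searched by their letters on both strands of the 300 bases, YY1 differed most in proportion between members and the other islands. Its letters, AANATGGCG, were in 94 of 913 promoters at members (10.3%, interval 8.40 to 12.5%), 4.46% of those at other islands (4.02 to 4.93%) and 2.38% of all promoters. Among compact islands the share was 1.37% at heights under 60, and 9.27, 11.9 and 12% in the 3 ranges of members. From 150 to under 180 the share was 7.5% (6.08 to 9.12%), with an interval that overlaps that of members. Within CpG ratios of 0.75 to 1 it was 10.8% (8.15 to 13.9%) at members and 5.18% (4.47 to 5.97%) at other islands. At ratios of 1 or more it was 9.62% (6.20 to 14.1%) and 7.17% (5.64 to 8.96%), with overlapping intervals. Tall wide islands had the letters at 3.97% (1.30 to 9.02%), an interval that overlaps that of members. Matches lay close to the start in both: their median position was 14 bases after it at members, with 62.9% of 97 matches at or after the start, and 9 bases after it at the other islands, with 60.1% of 381. Pcif1 (247) and Ube2g1 (244), printed above, Srsf2 (241), Tpgs1 (240), Rbm39 (237), Sfpq (232) and Slc25a3 (230) were the tallest members with the letters. The letters end in ATGGCG and can lie over a start codon. A match is a description of sequence and says nothing of binding by YY1.

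The letters of NRF1, GCGCANGCG, were in 20.4% of promoters at members (17.8 to 23.1%), 12.7% at other islands (11.9 to 13.4%) and 6.25% of all promoters. Within CpG ratios of 0.75 to 1 the shares were 21.9% (18.3 to 25.9%) and 15.8% (14.6 to 17.1%), but at ratios of 1 or more they were 25.9% (20.5 to 32.0%) and 25.5% (22.8 to 28.3%). Tall wide islands had the NRF1 letters at 17.5% (11.3 to 25.2%), an interval that overlaps that of members. The GC box, GGGCGGG, was in 64.7% of promoters at members (61.5 to 67.8%), 52.6% at other islands (51.5 to 53.6%) and 25.6% of all promoters. It was in 67.5% (58.5 to 75.5%) at tall wide islands, and at CpG ratios of 1 or more its shares were 63.6% (57.2 to 69.7%) at members and 59.3% (56.2 to 62.4%) at other islands, with overlapping intervals. Compact islands of 150 to under 180 held the GC box in 61.6% (58.8 to 64.4%), an interval that overlaps that of members. E2F letters, TTTGGCGC, were in 1.75% (1.0 to 2.83%), 0.860% (0.671 to 1.09%) and 0.514%, with overlapping intervals at members and other islands.

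For the other 7 motifs the intervals of members and other islands overlapped. At members and at other islands, the shares were 8.21 and 7.8% for ETS (CCGGAAGT), 4.49 and 3.32% for the cAMP response element (TGACGTCA), 10.7 and 10.3% for the E-box (CACGTG), and 35.4 and 37.2% for the CCAAT box. They were 4.27 and 5.46% for ZNF143 (ACTACANNT), 4.82 and 6.10% for the TATA box (TATAAA) and 1.53 and 2.15% for the homeodomain core (TAATTA). Over all promoters these 7 stood at 3.89, 1.79, 7.15, 37.4, 4.16, 13.6 and 5.29%, in the same order. A base can count for more than 1 motif, since the letters of NRF1, E2F and the GC box share CG-rich runs.

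**Figure D5:**
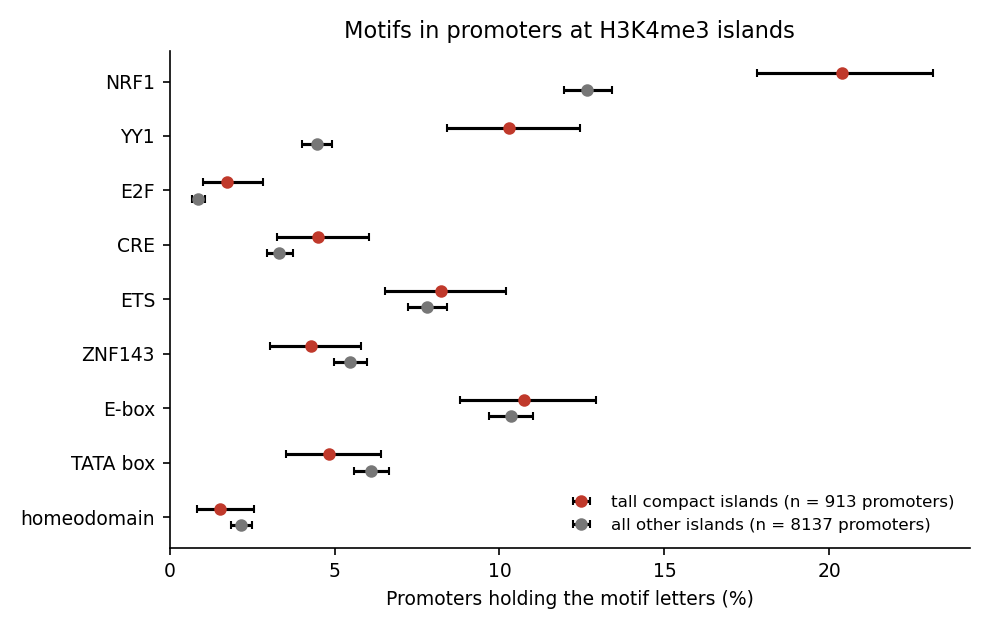
Share of promoters that hold the letters of 9 motifs on either strand (x axis, percent), for 913 promoters at tall compact islands (red) and 8137 at all other islands (grey); bars are exact 95% intervals. The intervals lie apart for YY1 (10.3 and 4.46%) and NRF1 (20.4 and 12.7%) and overlap for ETS, E-box and TATA box.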

How the data were processed

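H3K4me3 and H3K27me3 were mapped by chromatin immunoprecipitation and sequencing, with 1 library per mark. BWA, SICER (a caller of broad islands) and the build mm10 are named in the submitters' processing notes; the notes' list gives neither versions nor settings. An interval track and a summit track were deposited for each mark, per the file headers. Heights are a score that the authors deposited with each summit; its scaling is not given, so heights were compared within a mark only. Read counts were not used here, so depth and detection limits are unknown, and low islands can be missing. Signal tracks were not used here.

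Intervals and summits were joined by row order; 100% of summits lay inside their own island. Island edges lie on a grid of 200 bp and most summits (98.1%) on one of 16 bp, so positions are no finer than that. Gene starts and strands came from the RefSeq promoter table (GRCm38.p6, 300 bases each) for 16456 of the 20661 autosomal protein-coding genes. The other genes, those of chromosome 18 included, were placed at either annotated end, so divergent pairs were searched only among genes with a strand. Medians have binomial order-statistic 95% intervals. No test was run, since each mark had 1 library. Scripts were tested on simulated islands. Python 3.11.15, pandas 2.3.3, NumPy 2.4.6, SciPy 1.17.1 and matplotlib 3.10.9 were used.

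The members, the gene lists and the rule for named genes (the 20 tallest members, up to 6 genes per list by height, the tallest divergent pairs, the members with the longest or highest H3K27me3, the narrowest and widest, those without a gene start and those at the height limit) were chosen with earlier results of these data known; some genes that the rule takes are left out of the text. Srsf2, Tpgs1, Rbm39, Sfpq and Slc25a3 beside the YY1 letters, and the genes hosting small nucleolar RNAs, were named after their values were seen, as were the letters shortened to 9 bases for NRF1, YY1 and ZNF143. The alternatives tried were other height and width limits, gene and divergent distances, all gene types, other definitions of H3K27me3 overlap, and wider islands only.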

Additional observations from a re-analysis of the deposited data

How the results depend on the processing

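The comparisons of members with other islands kept their direction under all 8 alternative definitions of gene start, divergent pair and H3K27me3 overlap. A height minimum of 200 gave 412 islands and one of 160 gave 2019. With 200, the summit sat at 51.1% of the width and 284 bp from the gene start, and 9.52% of the listed genes lay at members, against 18.4% at the limit of 180. With 160, the summit distance was 244 bp, the share overlapping H3K27me3 8.62% and the share of listed genes 28.7%. A width under 6 kb gave 13.2% of listed genes. These shares move with the number of islands taken. The share of all autosomal protein-coding genes, 5.86%, was computed for the main limits only. Whether listed genes stood out more or less at other limits was therefore not tested. With all genes of the table counted, 16.1% of members held a divergent pair. Requiring H3K27me3 over at least 50% of the island gave 2.20% of members and 27.3% of other islands, and H3K27me3 islands at or above the median height gave 3.11 and 24.5%.

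The share of members' promoters with any of the 11 motifs, 89.0%, stayed between 87.7 and 90.5%. It was not computed for other islands and does not set members apart. Other islands held the GC box in 52.6% and the CCAAT box in 37.2% of promoters. With the longer letters searched first, 1 or 2 bases more, YY1 was in 5.70% of promoters at members and 2.05% at other islands, NRF1 in 15.7 and 9.52%, and ZNF143 in 3.40 and 4.38%; this alternative and the split by CpG ratio were chosen after seeing the data. No paired analysis was possible because each mark had 1 library, and no library could be left out. Divergent pairs with a gene placed by its ends only were not counted, in members or in other islands.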

Other observations

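Gene families grouped by the start of their symbol were picked after their values were seen, and 5.86% of all autosomal protein-coding genes is the share to read them against. Rab family GTPase genes and genes whose symbols start alike, which steer vesicle traffic, had 12 of 65 at members (18.5%, interval 9.92 to 30%), with Rab6a, Rab5if and Rab11a the tallest. Ddx and Dhx helicase genes had 8 of 51 (15.7%, 7.02 to 28.6%), and Usp deubiquitinase genes 8 of 50 (16%, 7.17 to 29.1%), with Usp15 and Usp1 the tallest. Rbm genes, of RNA-binding motif proteins, had 3 of 34 (8.82%, 1.86 to 23.7%), an interval that holds the share of all genes. Zinc finger genes named Zfp had 13 of 388 (3.35%, 1.80 to 5.66%), solute carrier genes 15 of 362 (4.14%, 2.34 to 6.74%, which also holds it) and Tmem genes 5 of 231 (2.16%, 0.706 to 4.98%). Of 1104 olfactory receptor genes, 1 had an H3K4me3 island, of height 15, and none lay at a member.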
